A study of Mus musculus with 12 samples.

Results

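Calprotectin, lipocalin 2, neutrophil granule and stefin genes were followed across mouse skin treated with bleomycin or PBS, in WT and Thy-1–KO mice. The set holds 10 genes, taken by symbol from a table of 55453: S100a8, S100a9, Lcn2, Ngp, Camp, Retnlg, Stfa1, Stfa2, Stfa3 and Cstdc5. The genes were chosen by their levels and bleomycin responses in these same 12 libraries, so their changes are given below as descriptions with their errors and without a test of their own. The name neutrophil granule went against the data for part of the set: Ngp and Camp, which mark neutrophils and their precursors, were close to 0 in nearly every library, as was Ly6g. The set is therefore called below by its leading genes, the stefin and calprotectin genes. Other neutrophil markers, Mmp8, Cxcr2 and Csf3r, rose with bleomycin in WT skin, and the number of neutrophils in the skin was not tested.

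The skin came from 12 female C57BL/6 mice aged 8 to 12 weeks, 3 in each of 4 groups. WT PBS and WT BLM mice carried Thy-1, and KO PBS and KO BLM mice lacked it from the germ line in all cells, on a C57BL/6 background with littermate controls. BLM mice received bleomycin at 10 mg/kg per day under the skin of the back, and PBS mice received the vehicle; the labels and the methods differ on whether injections lasted up to day 14 or 21. All skin was harvested on day 21, and each library is 1 mouse, named here by its number: WT PBS 159, 160 and 161, WT BLM 145, 146 and 147, KO PBS 136, 137 and 139, KO BLM 141, 143 and 144. Bleomycin is a DNA-cutting antibiotic that gives skin fibrosis in mice, and the study asked whether loss of Thy-1, a surface glycoprotein of fibroblasts, nerve cells and mouse T cells, changes that response.

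S100a8 and S100a9 pair to form calprotectin, a calcium- and metal-binding protein that makes up much of the cytosol of neutrophils and is also made by activated keratinocytes. Lipocalin 2 captures the iron carriers of bacteria and is made by neutrophils, macrophages and epithelia. Ngp (neutrophilic granule protein) and Camp (the cathelicidin antimicrobial peptide) are stored in secondary granules, and Retnlg is a resistin-like secreted protein of myeloid cells. Stfa1, Stfa2, Stfa3 and Cstdc5 are stefins, small cytosolic proteins of the cystatin A type that block cysteine cathepsins. They lie in a cluster of near copies in the mouse and are known both from myeloid cells and from stressed or inflamed epidermis. In whole skin, fewer cells of a type and less RNA per cell cannot be told apart.

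The 4 stefin genes lie on chromosome 16 of GRCm38 (GENCODE M21), Stfa1 at chr16:36276951-36285373 on the forward strand, Cstdc5 at chr16:36359382-36367748, Stfa2 at chr16:36403992-36408457 and Stfa3 at chr16:36450537-36455392, all 3 on the reverse strand, and each has 3 exons. Retnlg lies on the same chromosome at chr16:48872621-48874496, outside the cluster. S100a8 (chr3:90668978-90670035) and S100a9 (chr3:90692632-90695721) are neighbours on chromosome 3 that point in opposite directions, Ngp (chr9:110419747-110423012) and Camp (chr9:109847379-109849617) both lie on chromosome 9, and Lcn2 is at chr2:32384633-32388252. The end of the stefin reading frame is shown because it tells how far reads can separate the copies. The last 90 coding bases of Cstdc5, Stfa1, the neighbour Cstdc6, Stfa3 and Stfa2 run as follows, with capitals where a base differs from Cstdc5.
Cstdc5: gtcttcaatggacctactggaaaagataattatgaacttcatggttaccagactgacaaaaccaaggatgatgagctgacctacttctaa
Stfa1: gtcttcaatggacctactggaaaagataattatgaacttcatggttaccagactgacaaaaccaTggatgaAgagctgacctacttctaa
Cstdc6: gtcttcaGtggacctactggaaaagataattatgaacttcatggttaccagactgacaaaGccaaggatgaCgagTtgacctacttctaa
Stfa3: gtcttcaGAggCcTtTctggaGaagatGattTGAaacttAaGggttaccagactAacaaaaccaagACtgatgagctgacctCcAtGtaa
Stfa2: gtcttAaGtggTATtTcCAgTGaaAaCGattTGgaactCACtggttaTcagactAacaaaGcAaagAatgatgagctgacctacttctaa

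Within these 90 bases Stfa1 differed from Cstdc5 at 2 positions, Cstdc6 at 4, Stfa3 at 18 and Stfa2 at 23. Over the whole reading frame Stfa1 and Cstdc5 shared 98.0% of bases, Cstdc5 and Cstdc6 95.2%, and Stfa3 and Cstdc5 79.5%. Of the windows of 50 bases in each transcript, 33.5% in Cstdc5, 26.9% in Stfa1 and 14.7% in Stfa2 occurred unchanged in another member of the cluster, against 0 of 363 windows in Stfa3. Stfa2 and its near copy Stfa2l1 shared 96.5% of bases of the reading frame. How the authors' counting treated reads that match several copies is not given in the sources used here. The split of reads between Cstdc5, Stfa1 and Cstdc6, and between Stfa2 and Stfa2l1, is therefore uncertain, while Stfa3 had no such shared stretch.

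The sequences just before the RefSeq starts of the 4 stefin genes are shown because the genes lie in a cluster. Across the mice Stfa1, Stfa3 and Cstdc5 moved together (Pearson r of log2 CPM 0.98 for each pair). Stfa2 followed them less closely (0.77 to 0.84). Each sequence holds 120 bases, with the letters TTTAAA, and TTGCNNAA where present, in capitals.
Stfa1 (GRCm38.p6, chr16:36277028-36277147, forward strand): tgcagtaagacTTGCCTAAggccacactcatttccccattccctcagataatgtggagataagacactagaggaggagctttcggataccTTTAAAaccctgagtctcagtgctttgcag
Cstdc5 (GRCm38.p6, chr16:36367571-36367690, reverse strand): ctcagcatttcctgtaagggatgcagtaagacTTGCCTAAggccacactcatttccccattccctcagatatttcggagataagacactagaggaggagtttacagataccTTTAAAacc
Stfa3 (GRCm38.p6, chr16:36455393-36455512, reverse strand): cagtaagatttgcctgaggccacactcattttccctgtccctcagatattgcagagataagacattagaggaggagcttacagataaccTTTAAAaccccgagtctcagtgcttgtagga
Stfa2 (GRCm38.p6, chr16:36408364-36408483, reverse strand): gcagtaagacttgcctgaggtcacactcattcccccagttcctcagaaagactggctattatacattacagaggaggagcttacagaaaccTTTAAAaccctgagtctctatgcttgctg

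All 4 stefin windows held TTTAAA, read on the gene's strand, which 13.2% of 32851 RefSeq promoter windows of 300 bases held. Stfa1 and Cstdc5 also held TTGCNNAA, a form of the C/EBP motif searched on both strands, which 10.8% of those windows held. The promoter windows of Stfa1 and Cstdc5 were 96.1% identical over 280 aligned columns, those of Stfa3 and Cstdc5 84.5% over 278, and those of Stfa1 and Stfa2 79.4% over 301. In their windows of 300 bases, 6 of the 10 genes held TTGCNNAA (S100a9, Lcn2, Ngp, Retnlg, Stfa1 and Cstdc5). S100a8 and S100a9 held the TATA box letters TATAAA, found in 8.32% of windows on the gene's strand, and held no TTTAAA, and Stfa3 alone held the AP-1 letters TGANTCA, found in 7.81% on both strands. Such matches describe the letters of these windows only.

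Each library held between 26473700 and 38890450 counts (median 31494965). Thy1, the targeted gene, was at 104, 115 and 150 counts per 1e+06 library counts (CPM) in WT mice given PBS and at 231, 349 and 416 CPM in those given bleomycin. In the libraries labelled KO it was at 45.6, 77.4 and 96.8 CPM with PBS and 84.6, 96.3 and 128 with BLM, so reads of the gene remained, and a count per gene does not show from which exons they came. The 29 growing-hair genes in the table divided the mice across the groups. Averaged over these genes, the level was high in all 3 WT PBS mice (log2 CPM of 9.02 to 9.71), in KO PBS 136 (9.60) and in KO BLM 141 (8.58), and lay between -1.05 and 5.58 in the other 7 mice. In WT mice this hair state and the treatment cannot be told apart, since the 3 PBS mice were high and the 3 BLM mice were low.

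Stfa3 and Cstdc5 were the most abundant genes of the set in BLM skin. Cstdc5 was at 2.50, 2.66 and 1.48 CPM in WT PBS mice 159, 160 and 161 and at 158, 145 and 584 CPM in WT BLM mice 145, 146 and 147. In KO PBS mice 136, 137 and 139 it was at 1.43, 3.71 and 1.46 CPM, and in KO BLM mice 141, 143 and 144 at 16.5, 472 and 585 CPM. Every BLM mouse was above every PBS mouse in both genotypes, and KO BLM 141, the BLM mouse with high hair genes, was the lowest of the 6 BLM mice. The log2 fold change with bleomycin was 7.06 ± 1.24 (SE, n = 3 and 3) in WT and 7.34 ± 1.25 in KO skin.

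Stfa3 ranked the 6 BLM mice as Cstdc5 did, with KO BLM 141 lowest. It was at 4.70, 3.42 and 5.22 CPM in WT PBS skin and at 175, 112 and 545 CPM in WT BLM skin. It was at 0.897, 5.05 and 6.13 CPM in KO PBS skin and at 21.7, 486 and 658 CPM in KO BLM skin. The groups did not overlap in either genotype, and the log2 fold changes were 5.96 ± 1.22 in WT and 6.59 ± 1.26 in KO skin. Per kilobase of exon Stfa3 was the highest gene of the set in all 4 groups, at 673 ± 568 CPM per kilobase (SD, n = 3) in WT BLM and 943 ± 799 in KO BLM skin. Its order above Cstdc5 depends on how shared reads and exon length of Cstdc5 were counted.

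Stfa1 was barely detected with PBS, at 3 to 7 counts (0.135, 0.0986 and 0.178 CPM) in WT and 0.0664, 0.742 and 0.357 CPM in KO mice. With bleomycin it was at 16.2, 12.2 and 66.4 CPM in WT and at 1.07, 51.6 and 75.5 CPM in KO mice. The groups again did not overlap, with log2 fold changes of 7.78 ± 1.56 in WT and 6.74 ± 1.43 in KO skin. The ratio of Cstdc5 to Stfa1 reads was 7.75 to 15.4 over the 6 BLM mice, and this ratio carries the uncertainty of the shared stretches.

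Stfa2 differed from the other stefins in PBS skin, and its reads carry the uncertainty of the stretches shared with Stfa2l1. The 3 WT PBS mice held 1.96, 5.0 and 1.32 CPM and KO PBS 136 held 1.4 CPM, all with high hair genes, against 0.2 and 0.0596 CPM (7 and 2 counts) for KO PBS 137 and 139. With bleomycin it was at 14.7, 3.36 and 46.4 CPM in WT and at 1.71, 34.5 and 44.7 CPM in KO mice. WT BLM 146 lay below WT PBS 160, so the WT groups overlapped, while the KO groups did not. The log2 fold changes were 2.96 ± 1.28 in WT, 1.71 without WT BLM 147, and 5.63 ± 1.48 in KO skin.

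The 4 stefins together took 0.0275% to 0.120% of all reads in the WT BLM mice, 0.00422% in KO BLM 141, and 0.105% and 0.127% in KO BLM 143 and 144. In the 6 PBS mice the share was 0.000363% to 0.00110%. Stfa3 and Cstdc5 made up 90.9% to 94.3% of the normalized stefin level in the 6 BLM mice and 54.4% to 94.8% in the 6 PBS mice.

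**Figure D1:**
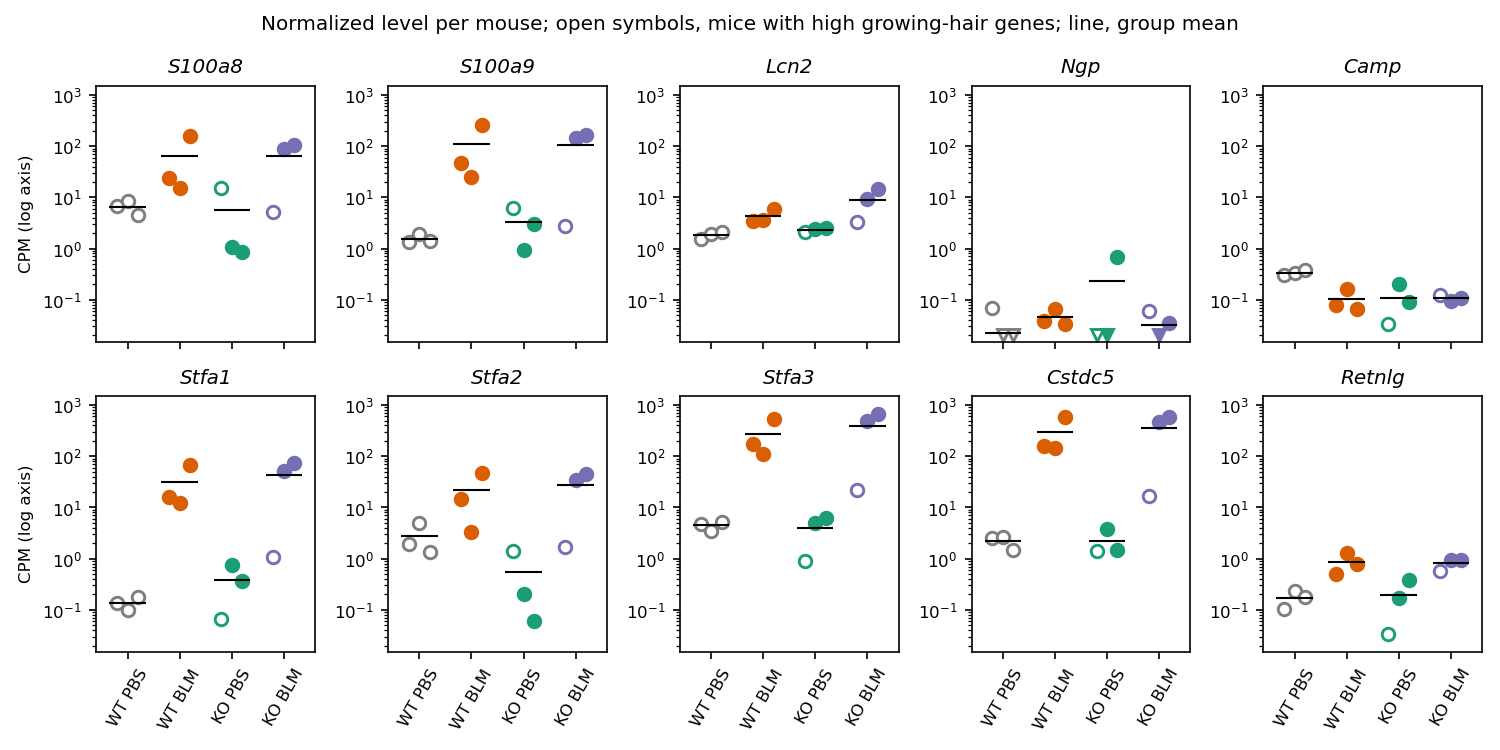
Level of each gene in each mouse, in CPM on a log axis, by group; lines are group means, open symbols are the 5 mice with a mean above 8 log2 CPM over the growing-hair genes, and triangles at the base of the axis are mice with 0 counts. Stfa3 and Cstdc5 were above every PBS mouse in all 6 BLM mice, whereas Ngp was at 0 to 2 counts in 11 mice and at 23 in KO PBS 139.

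Reads of the calprotectin genes S100a8 and S100a9 were present in PBS skin and higher in most BLM mice. S100a9 was at 1.32, 1.91 and 1.43 CPM in WT PBS and at 47.9, 24.5 and 256 CPM in WT BLM mice. In KO mice it was at 6.15, 0.942 and 2.95 CPM with PBS and at 2.72, 144 and 167 CPM with BLM. The WT groups did not overlap, and in KO skin KO BLM 141 lay below KO PBS 136 and 139. The log2 fold changes were 6.14 ± 1.47 in WT, 4.54 without WT BLM 147, and 4.97 ± 1.38 in KO skin.

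S100a8 was at 6.69, 8.42 and 4.56 CPM in WT PBS and at 23.9, 15.5 and 158 CPM in WT BLM mice. In KO mice it was at 14.9, 1.06 and 0.864 CPM with PBS and at 5.20, 88.5 and 103 CPM with BLM. KO PBS 136 was thus above KO BLM 141, the 2 KO mice with high hair genes, and the log2 fold changes were 3.33 ± 1.36 in WT and 3.55 ± 1.38 in KO skin. With 1 mouse left out, the WT value ran from 1.59, without WT BLM 147, to 3.79, and the KO value from 3.04 to 6.09, without KO PBS 136. In the 5 mice with high hair genes S100a8 reads outnumbered S100a9 reads. S100a8 made up 83.5%, 81.5% and 76.2% of the pair in WT PBS 159, 160 and 161 and 70.9% in KO PBS 136. In KO BLM 141, the fifth, its share was 65.6% (95% Wilson interval 59.7% to 71.2%).

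In the other 5 BLM mice, of which KO BLM 143 and 144 had hair genes in the middle of the range (log2 CPM of 4.46 and 5.58), the S100a8 share of the pair was 33.4%, 38.7% and 38.1% in WT BLM 145, 146 and 147 and 38.0% and 38.1% in KO BLM 143 and 144. The highest of these lay below the lowest of the mice with high hair genes. In KO PBS 137 and 139 the share was 52.9% (41.3% to 64.1%) on 70 reads and 22.7% (16.3% to 30.6%). The intervals cover counting error only. Because S100a8 and S100a9 differ in exon length, a share of 50% of reads is not an equal level per length; per kilobase S100a9 was above S100a8 in 5 of the 6 BLM mice, all but KO BLM 141.

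**Figure D2:**
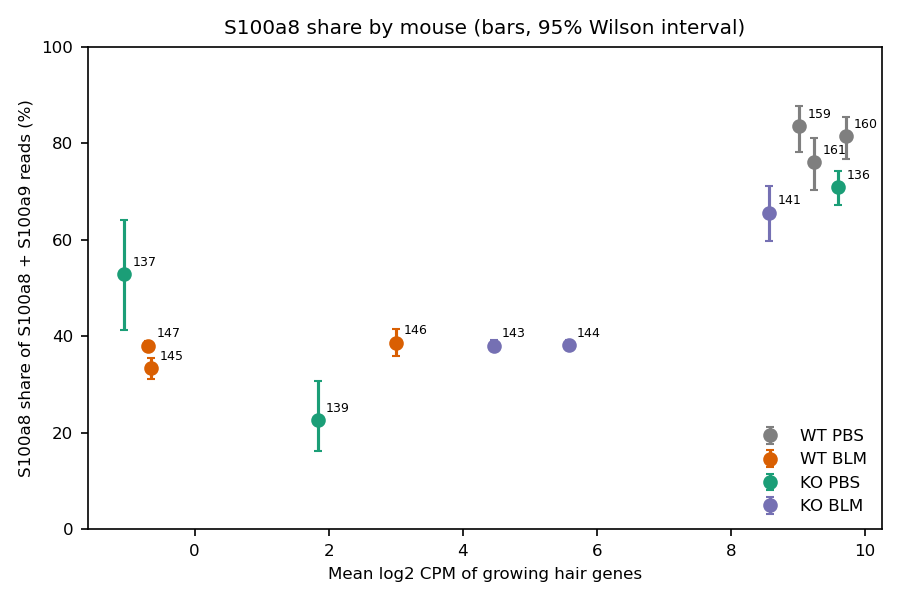
Share of S100a8 among S100a8 and S100a9 reads (percent, vertical axis, bars are 95% Wilson intervals) against the mean log2 CPM of the growing-hair genes (horizontal axis), 1 point a mouse, labelled by its number and coloured by group. The 5 mice with high hair genes lie between 65.6% and 83.5%, and the other 5 BLM mice between 33.4% and 38.7%, 2 of them, KO BLM 143 and 144, in the middle of the horizontal axis.

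Lcn2 had smaller fold changes with bleomycin than S100a8 and S100a9. WT mice held 1.52, 1.91 and 2.06 CPM with PBS and 3.48, 3.68 and 5.90 CPM with bleomycin. KO mice held 2.13, 2.46 and 2.47 CPM with PBS and 3.24, 9.33 and 14.5 CPM with bleomycin. No BLM mouse overlapped the PBS mice of its genotype, and the log2 fold changes were 1.25 ± 0.45 in WT and 1.94 ± 0.45 in KO skin. Lcn2 had the largest gap between the genotypes under bleomycin, a log2 difference of 1.05 ± 0.44 (KO BLM over WT BLM, 95% interval 0.08 to 2.02), with overlapping mice.

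Retnlg was at 3 to 7 counts in WT PBS mice (0.101, 0.230 and 0.178 CPM) and at 0.509, 1.30 and 0.787 CPM in WT BLM mice. In KO mice it was at 0.0332, 0.171 and 0.387 CPM with PBS and at 0.581, 0.961 and 0.954 CPM with BLM. The groups did not overlap, and the log2 fold changes were 2.32 ± 0.63 in WT and 2.03 ± 0.62 in KO skin. KO BLM 141 was within 1.65-fold of the highest KO BLM mouse for Retnlg, against 70.5-fold for Stfa1 and 61.4-fold for S100a9.

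Camp and Ngp did not share this pattern. Camp was at 9 to 15 counts in the WT PBS mice (0.304, 0.329 and 0.382 CPM) and at 2 to 5 in the WT BLM mice (0.0783, 0.163 and 0.0656 CPM), and was at 1 to 7 counts in the 6 KO mice. Its log2 fold change was -1.68 ± 0.52 in WT and -0.03 ± 0.57 in KO skin, on these few reads. Ngp had 0 to 2 counts in 11 mice and 23 counts, 0.685 CPM, in KO PBS 139 alone, and did not pass the filter on low counts.

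Of the 10 genes, 9 passed the filter on low counts and entered the fit over 18311 genes. In WT skin, S100a9, Retnlg, Stfa1, Stfa3 and Cstdc5 were past the threshold upwards and Camp downwards (edgeR's quasi-likelihood test, adjusted p under 0.05), 6 of 9, beside 34.0% of all genes tested (19.8% upwards and 14.1% downwards). In KO skin Cstdc5 alone was past it, upwards, beside 0.306% of all genes (0.251% upwards and 0.0546% downwards). In WT skin every BLM mouse was above every PBS mouse for 7 of the 9 genes and below for 1, beside 57.0% of all genes without overlap in either direction and 28.3% upwards. In KO skin this held upwards for 6, beside 19.3% and 10.9%. The downward call for Camp was lost in DESeq2, without a filter on low counts, and without WT BLM 145, WT BLM 147 or any 1 of the WT PBS mice. The upward calls for S100a9 and Retnlg were lost without any 1 of the WT PBS mice. Since the set was chosen with these responses in view, nothing is read from these counts. The median log2 fold change of the 9 genes was 3.33 in WT and 4.97 in KO skin, beside 0.02 and -0.01 over all genes.

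The KO count changed with the mice and the method. With all mice DESeq2 called 7 of the 9 genes of the set that it tested, beside 6.14% of all genes. With any 1 mouse but KO PBS 136 or KO BLM 141 left out edgeR called 0, beside at most 0.123% of all genes. Without KO PBS 136 and KO BLM 141 together, 8 of the 9 genes were past the threshold in KO skin, all but Camp, beside 22.3% of all genes tested. The log2 fold change of S100a8 was then 6.63 ± 1.19 and that of Stfa2 8.20 ± 1.47, against 3.55 and 5.63 with all mice, while Cstdc5 was at 7.67 ± 0.89. Without KO PBS 136 alone the count was 6, beside 14.05% of all genes, and without KO BLM 141 alone it was also 6, beside 6.19%. With the mean of the growing-hair genes as a covariate, 0 of the 9 were past the threshold in WT skin, where the covariate follows the treatment, beside 0.0382% of all genes, and 5 in KO skin, beside 9.09%.

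Between the 2 KO mice with high hair genes, the order by treatment depended on the gene. KO BLM 141 exceeded KO PBS 136 for Cstdc5 (16.5 against 1.43 CPM), Stfa3 (21.7 against 0.897) and Stfa1 (1.07 against 0.0664). It did not for S100a9 (2.72 against 6.15 CPM) or S100a8 (5.20 against 14.9). With 1 mouse on each side these differences have no replicate check. KO BLM 143 and 144 exceeded KO PBS 137 and 139 for all 7 of the stefin, calprotectin and Lcn2 genes, and also had higher hair genes than those mice (log2 CPM of 4.46 and 5.58 against -1.05 and 1.84).

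**Figure D3:**
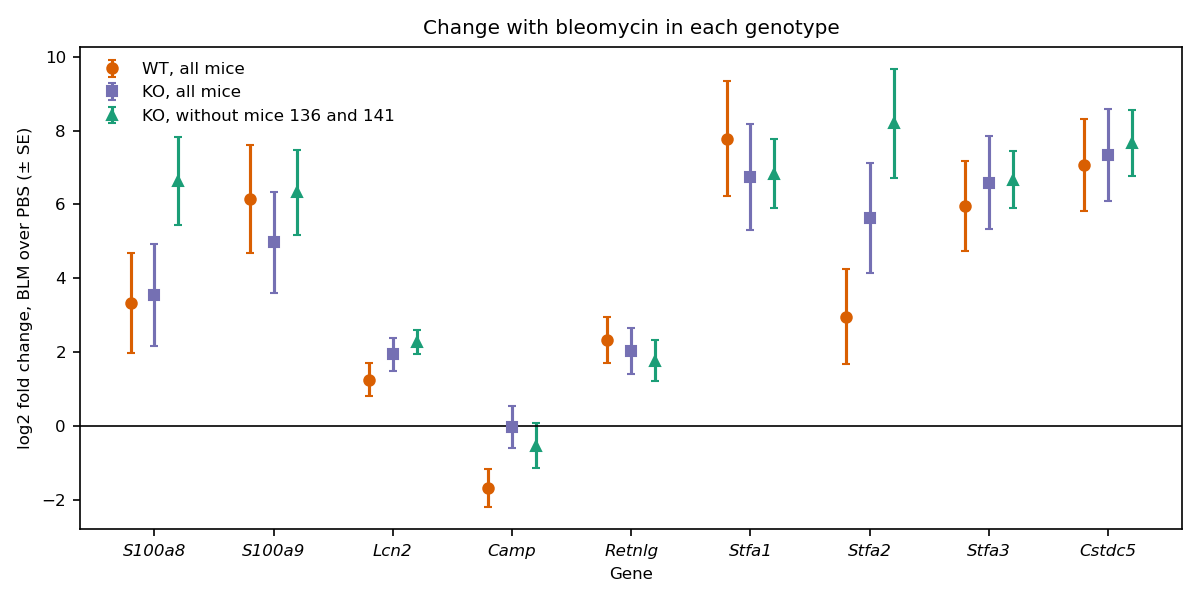
Log2 fold change of BLM over PBS (vertical axis, ± SE from the fit over all genes) for the 9 genes that passed the filter, in WT skin, in KO skin with all mice, and in KO skin without mice 136 and 141. Cstdc5 lies between 7.06 and 7.67 in the 3 fits, whereas S100a8 goes from 3.55 to 6.63 in KO skin when the 2 mice are left out.

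Between genotypes, no gene of the set was past the threshold, beside 0.0655% of all genes in KO PBS against WT PBS (0.0382% higher and 0.0273% lower in KO) and 0.0928% in KO BLM against WT BLM (0.0546% higher and 0.0382% lower). The mice of the 2 genotypes did not overlap for 2 of the 9 genes with PBS, Lcn2 higher and Camp lower in KO mice, beside 18.9% of all genes in either direction and 8.62% higher. With bleomycin they overlapped for all 9, beside 27.5% of genes without overlap and 14.6% higher in KO mice without overlap. Under bleomycin the log2 difference, KO over WT, was 0.27 ± 0.94 for Cstdc5 (95% interval -1.81 to 2.36), 0.49 ± 0.99 for Stfa3 (-1.69 to 2.67) and -0.07 ± 1.15 for S100a9 (-2.62 to 2.49). These intervals hold differences of several fold in either direction, so the data do not show that the genotypes had like levels. Within the groups, WT BLM 147 and KO BLM 143 and 144 were high, WT BLM 145 and 146 were lower, and KO BLM 141 was lowest.

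With PBS, the log2 difference of KO over WT was 0.00 ± 0.90 for Cstdc5 and -0.14 ± 1.02 for Stfa3, and -2.34 ± 1.35 for Stfa2. Without KO PBS 136 the Stfa2 value was -4.35 ± 1.82, and without KO BLM 141 as well it was -4.35 ± 1.44, past the threshold. In that last fit 40.9% of all genes were past it. Camp was lower in all 3 KO PBS than in all 3 WT PBS mice, with a log2 difference of -1.59 ± 0.51, on at most 15 counts a mouse. The difference between the bleomycin responses of KO and WT mice was not past the threshold for any gene of the set, beside 0 of 18311 genes tested by edgeR. DESeq2 called 3279 genes (18.5%) in that comparison and 0 of the 8 of the set that it tested, and 5687 genes had an unadjusted p under 0.05 in edgeR. The largest such differences in the set were 2.67 ± 1.79 for Stfa2 and 1.65 ± 0.79 for Camp on the log2 scale.

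Per length, the order of the genes changed between PBS and BLM skin. In WT PBS skin Stfa3 (10.8 ± 2.25 CPM per kilobase, SD, n = 3) and S100a8 (9.45 ± 2.79) were highest and did not differ beyond their spread, followed by Stfa2 (5.86 ± 4.17), S100a9 (2.97 ± 0.601) and Cstdc5 (2.80 ± 0.814). In WT BLM skin the order was Stfa3, Cstdc5 (374 ± 316), S100a9 (210 ± 245), S100a8 (94.6 ± 115), then Stfa2 (45.6 ± 47.4) and Stfa1 (44.5 ± 42.6), with neighbours within their spread over mice. Within mice, Stfa3 exceeded Cstdc5 per kilobase in 12 of 12 and S100a8 exceeded Stfa2 in 12 of 12. Levels of Cstdc5, Stfa1 and Stfa2 carry the uncertainty of the shared stretches. For Cstdc5 the 790 bases of exon used here also exceed the 619 of the transcript compared above, so its order below Stfa3 is uncertain. Cstdc5 exceeded S100a9 in 6 of 6 BLM mice and 8 of 12 in all, S100a9 exceeded S100a8 in 7 of 12, and Stfa2 exceeded Stfa1 in 8 of 12, 4 of them BLM mice.

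Of the defining neutrophil markers, Ly6g, Mpo, Elane and Ltf had few counts where the stefin and calprotectin genes were high. Mmp8, Cxcr2 and Csf3r rose in WT skin. Ly6g, the usual surface marker of mouse neutrophils, had at most 2 counts in any library. Mpo, the myeloperoxidase of azurophil granules, had at most 6 counts, Elane, neutrophil elastase, at most 15, and Ltf, lactoferrin, at most 21. At these few reads Mpo had 0 or 1 count in WT PBS and 4 to 6 in WT BLM mice. It had 0 in KO PBS and 1 to 3 in KO BLM mice. Mmp8, the neutrophil collagenase, had 0 or 1 count in WT PBS and 7 to 21 in WT BLM mice, at least 5.25-fold higher against the 3 counts per library taken as the floor, and rose (edgeR quasi-likelihood test, adjusted p = 0.0151 over all genes). Of the azurophil enzymes 3 of 5 were tested and 0 changed in any comparison.

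Most neutrophil identity genes, some of them shared with other cells, rose in WT skin. Of the 23 neutrophil identity genes 18 were tested, of which 12 rose and 1 fell in WT skin, with a median log2 fold change of 2.44 beside 0.02 over all genes. Over all genes tested 19.8% rose and 14.1% fell in WT skin. Cxcr2, the receptor for the Cxcl chemokines, went from 0.682 ± 0.202 to 9.86 ± 7.14 CPM (log2 fold change 3.85 ± 0.85, adjusted p = 0.0109), and Csf3r, the G-CSF receptor, from 3.45 ± 0.328 to 20.1 ± 7.98 CPM (adjusted p = 0.00557). Clec4e and Clec4d, lectin receptors that monocytes and macrophages also carry, rose by 6.18 ± 1.03 and 5.34 ± 1.03 on the log2 scale (adjusted p = 0.00504 and 0.00714). In KO skin 0 of the 18 passed the threshold, with 14 of the 18 log2 fold changes above 0 and a median of 1.10. There Cxcr2 was at 0.619 ± 0.415 CPM with PBS and 8.25 ± 5.89 CPM with bleomycin (log2 fold change 3.74 ± 0.85, edgeR quasi-likelihood test, adjusted p = 0.0897).

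The secondary and gelatinase granule list, counted without the genes of the set, had 12 of 14 tested genes up and 0 down in WT skin. In KO skin 0 of 14 were past the threshold. Camp and Ngp, which are also stored in secondary granules, lie outside these counts. Camp fell in WT skin on few reads, and Ngp was not tested. Median log2 fold changes were 2.67 in WT and 1.05 in KO skin, with 13 and 12 of the 14 above 0. Chil3, a chitinase-like protein, rose at least 10.2-fold from the floor in WT skin (adjusted p = 0.00536), Mmp9, gelatinase B, went from 5.90 ± 1.51 to 102 ± 66.4 CPM (adjusted p = 0.00917), and Slpi, an inhibitor of neutrophil elastase that epithelia also secrete, from 1.55 ± 0.540 to 22.5 ± 21.1 CPM (adjusted p = 0.0118). Macrophage genes moved as well: 15 of 17 rose in WT and 1 of 17, Ly6c2, in KO skin. In KO skin 15 of the 17 had log2 fold changes above 0, with a median of 0.64, beside 2.40 in WT skin. Their summed level ran from 645 to 1245 CPM with PBS and from 2724 to 4009 CPM with bleomycin in WT mice, and from 674 to 2408 and from 1970 to 2691 CPM in KO mice, with 0 of 17 genes at the floor in any group. Their part in the results was not tested.

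Chemokines that attract neutrophils were at low levels. Of 17 measured genes of a list of attractants, growth factors and the receptors C5ar1 and Ltb4r1, 11 were tested, of which 7 rose and 0 fell in WT and 0 changed in KO skin. Cxcl5 had 0 or 1 count in the WT PBS mice and was at 0.163, 0.430 and 5.31 CPM in the WT BLM mice, so that 1 mouse held most of its reads. Cxcl2 rose at least 14.7-fold against the floor in WT skin (adjusted p = 0.0391), and Cxcl1 went from 0.197 ± 0.0853 to 1.57 ± 0.978 CPM (adjusted p = 0.0149). The median log2 fold change of the 11 genes was 2.19 in WT and 2.93 in KO skin.

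Among genes of stressed keratinocytes, the summed level of Krt6b and Krt16 ranked the 6 BLM mice in the same order as the summed stefin level. Krt6b, a keratin of wounded and hyperproliferative epidermis, went from 0.359 ± 0.147 CPM in WT PBS to 501 ± 554 in WT BLM skin (log2 fold change 10.42 ± 2.18, adjusted p = 0.00936), and Krt16, its partner, from 36.1 ± 7.34 to 718 ± 661 CPM (adjusted p = 0.0303). Krt6b and Krt16 together were at 537, 499 and 2620 CPM in WT BLM 145, 146 and 147, at 33.8 CPM in KO BLM 141, and at 1743 and 2931 CPM in KO BLM 143 and 144. With PBS they were at 32.7, 45.0 and 31.6 CPM in WT 159, 160 and 161. In KO PBS 136, 137 and 139 they were at 86.3, 13.5 and 170 CPM. For these keratins KO BLM 141 thus lay among the PBS mice. Its stefin sum of 41.0 CPM lay above every PBS mouse (at most 11.2 CPM). The 3 mice with the highest stefin level, WT BLM 147 and KO BLM 143 and 144, were also the 3 highest for these keratins, for Cxcr2 (17.6, 10.9 and 12.4 CPM) and for Slpi (46.8, 26.04 and 41.3 CPM). Krt6a of the same list did not rank the BLM mice in this order. In KO skin Krt6b was at 1.83 ± 1.41 and 662 ± 640 CPM (adjusted p = 0.0957).

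Of the 36 stress keratinocyte genes 29 were tested, of which 13 rose and 1 fell in WT and 0 changed in KO skin, with median log2 fold changes of 2.23 and 2.08. Sprr2d, a cornified envelope precursor, had 2 to 6 counts in WT PBS and was at 33.1 ± 37.0 CPM in WT BLM skin (adjusted p = 0.0101). Krt6a, which growing hair follicles also express, was at 441 ± 42.7 and 668 ± 578 CPM in WT skin (adjusted p = 0.555). Keratinocyte markers were abundant in all groups, Krt5 being at 3563 to 3936 CPM in WT mice with PBS and 2485 to 5598 CPM with bleomycin.

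**Figure D4:**
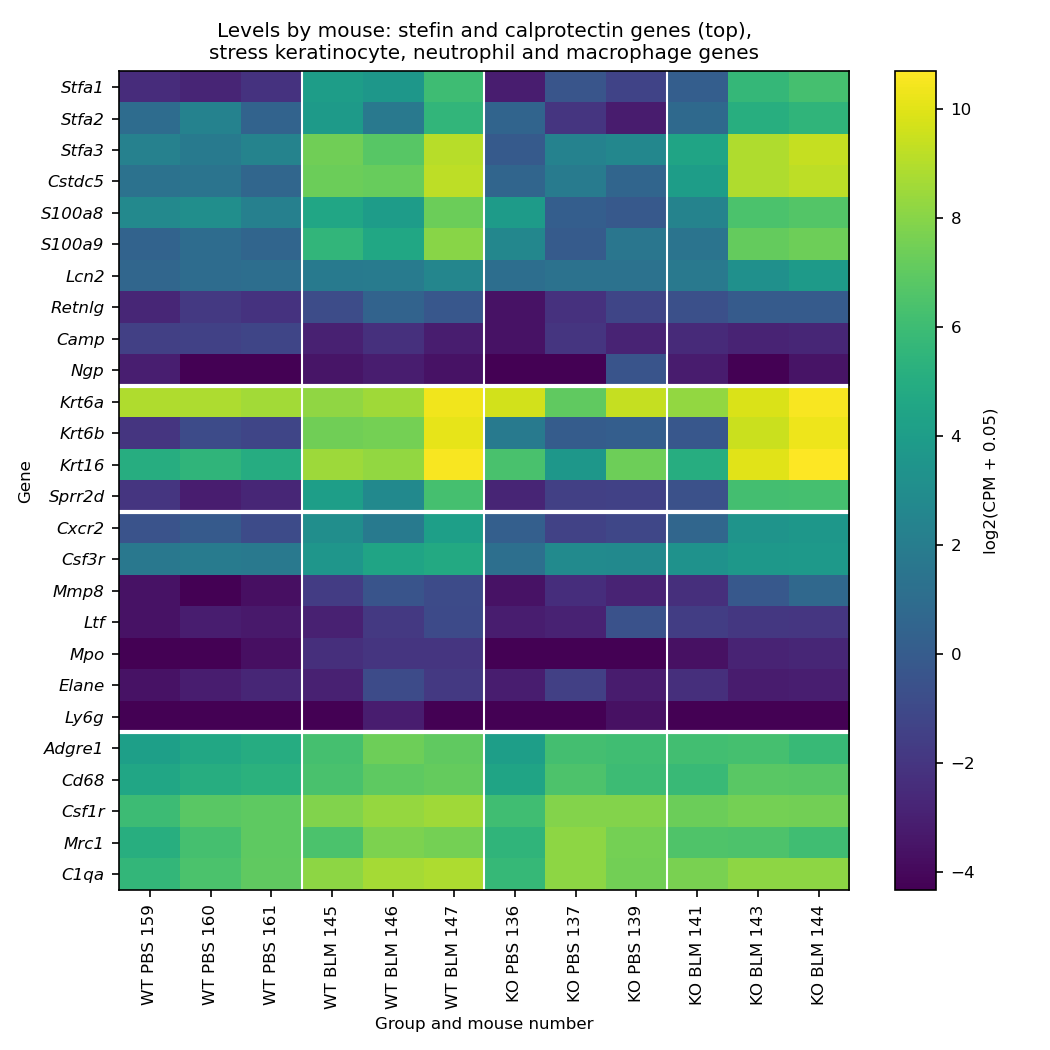
Log2(CPM + 0.05) of the 10 genes, stress keratinocyte genes, neutrophil markers and macrophage markers (rows, white lines between the groups of genes) in each of the 12 mice (columns, by group). WT BLM 147 and KO BLM 143 and 144 are brightest for the stefin genes, S100a8, S100a9, Krt6b, Krt16 and Sprr2d, while Ly6g, Mpo and Elane have at most 15 counts in any mouse. Cxcr2 and Csf3r are higher in every WT BLM than in every WT PBS mouse.

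Among the other stefins and cystatins, the close copy Cstdc6 had the largest change. Cstdc6 went from 0.112 ± 0.0202 to 2.84 ± 3.54 CPM in WT skin (log2 fold change 4.63 ± 1.38, adjusted p = 0.0293), and its reads share stretches with Cstdc5 and Stfa1. Of the 7 tested genes of the list, Cstdc6, Cst7 and Cst3 rose in WT skin and 0 changed in KO skin. In the list of cathepsins and related lysosomal proteases 7 of 14 rose and 1 fell in WT skin, beside 19.8% and 14.1% of all genes. Stefins inhibit only the cysteine cathepsins of this list. Ctss, a cysteine cathepsin of antigen-presenting cells, rose from 52.7 ± 12.2 to 564 ± 76.7 CPM (adjusted p = 0.00431), and Ctse, an aspartic protease, fell from 151 ± 17.8 to 1.75 ± 1.45 CPM (adjusted p = 0.0318).

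Other S100 genes did not follow S100a8 and S100a9 as a group, with 4 of 12 up and 5 down in WT and 0 changed in KO skin. Over all genes tested 19.8% rose and 14.1% fell in WT skin. S100a3, a hair cuticle protein, fell from 754 ± 41.4 to 4.54 ± 6.06 CPM in WT skin (adjusted p = 0.0434), and S100a4, which macrophages and fibroblasts express, rose from 8.25 ± 1.11 to 28.0 ± 7.98 CPM (adjusted p = 0.0199). Of 13 receptors of the secreted products 5 rose and 1 fell in WT skin. Their median log2 fold change was 0.09, beside 0.02 over all genes, and nothing is read from this count. Tlr4, a receptor of calprotectin, went from 5.04 ± 1.76 to 13.4 ± 4.09 CPM (adjusted p = 0.0254), and its partner Cd14 from 5.95 ± 1.48 to 34.7 ± 7.76 CPM (adjusted p = 0.00440).

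Across the 12 mice the 21 pairs among S100a8, S100a9, Lcn2 and the 4 stefins had Pearson correlations of log2 CPM from 0.73 to 0.98, with a median of 0.88. The points share groups and hair state, and the values describe these mice. S100a8 and Stfa2 stood together (r = 0.97), as did Stfa1, Stfa3 and Cstdc5 (0.98 for each pair), while Camp had r between -0.60 and -0.24 with every other gene that passed the filter. Among 13223 named genes outside the set that averaged 1 log2 CPM or more, the 6 most like the mean of these 7 genes were Slpi (r = 0.99), Rbp2, a retinol-binding protein (0.99), Il1b, the inflammatory cytokine (0.98), Cxcr2 (0.98), Glrx, a glutaredoxin (0.98), and Sprr2d (0.98). Over all 18302 tested genes outside the set, at any level, 6.03% had an r over 0.8. The share was 7 of 11 for the neutrophil attractant list, 15 of 29 for stress keratinocyte genes, 5 of 14 for cathepsins, 4 of 12 for T cell genes, 4 of 14 for secondary and gelatinase granule genes, 5 of 18 for neutrophil identity genes and 4 of 17 for macrophage genes.

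For Camp and Retnlg, whose own correlation was -0.24, no common pattern existed. The genes most like their mean were Fam178b (r = 0.90), Plxnc1 (0.82), Spon1 (0.81), Ccm2 (0.80), Rpp14 (0.79) and Pcdh12 (0.75).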

How the data were processed

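RNA from whole skin of 12 mice was sequenced. The authors prepared stranded mRNA libraries, sequenced read pairs and deposited read counts per gene without normalization; the submitters' processing notes name GRCm38.p6 and MultiQC 1.7, while the aligner, counter and annotation are not given in the sources used here. The authors tested with DESeq2. Here, counts of all 55453 genes were filtered with filterByExpr (at least 10 counts, 15 in total), which left 18311 genes, scaled by TMM and fitted in edgeR 4.0.16 (R 4.3.3) with a quasi-likelihood model of 4 group means. Each library is 1 mouse. P-values were adjusted by Benjamini-Hochberg over all genes tested, with a threshold of 0.05. A gene counted as risen, fallen or changed was past this threshold. In WT skin 19.8% of all genes rose and 14.1% fell, and each list count there stands beside these shares. In KO skin 0.306% of all genes were past the threshold, so a count of 0 for a list there does not show that its genes stayed level. An SE is the log2 fold change divided by the root of its F. A CPM is TMM-scaled, and log2 CPM uses a prior count of 2. In a group with at most 3 counts in every mouse, a fold is a lower bound against 3 counts per library. Changes were reported as log2 fold changes, first group over second.

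The genes and gene lists were chosen with earlier results of these data known. The 10 genes of the set were left out of the counts of every other list. All 10 genes were named in each comparison. From each list, up to 4 genes past the threshold with the largest change were eligible, or up to 3 with the highest level, together with its defining markers. Alternatives were RLE and upper-quartile scaling, DESeq2 1.42.0, no filter, a mean of at least 1 CPM, only the 2 groups compared, each mouse left out, both KO mice with growing hair left out, and growing hair as a covariate. Sequences came from RefSeq promoters and GENCODE M21 transcripts, and all 10 genes had a promoter window. On simulated data for WT BLM against WT PBS with 18311 genes, 178 of 200 genes changed 4-fold were recovered (89.0%), with 10 false calls. Every simulated gene had the same dispersion, the common value of 0.122, and the changed genes averaged at least 1 CPM. This recovery does not carry over to genes with a wider spread. S100a8, at a log2 fold change of 3.33 ± 1.36 in WT skin, was not past the threshold. Recovery for KO BLM against KO PBS was not tested. There Stfa3 was not past the threshold at a log2 fold change of 6.59 ± 1.26. Depth of 26473700 to 38890450 counts left at most 40 reads a mouse for Ngp, Camp and Retnlg.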

Additional observations from a re-analysis of the deposited data

How the results depend on the processing

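No paired analysis was possible because each mouse carries its own number. The count of the 9 genes past the threshold in WT skin was 6 with all mice, beside 34.0% of all genes. With 1 mouse left out it was 3 to 8, beside 13.9% to 45.7% of all genes. It was 3 without WT PBS 159, 160 or 161, where Stfa1, Stfa3 and Cstdc5 remained. It was 9 without both KO mice with growing hair, beside 49.0% of all genes, and 0 with growing hair as a covariate, beside 0.0382%. In KO skin the count was 1 with all mice, beside 0.306% of all genes. It was 0 under RLE, upper-quartile scaling, a mean of at least 1 CPM and the 2-group fit, beside at most 0.263%. It was 3 without a filter (0.507%), 5 with the covariate (9.09%), 7 in DESeq2 (6.14%) and 8 without both KO mice (22.3%). With 1 mouse left out it was 0 to 6, beside 0% to 14.05%. For KO PBS against WT PBS, KO BLM against WT BLM and the difference of responses the count was 0 under every alternative but the loss of both KO mice. There it was 1 in each (Stfa2, Lcn2 and Stfa2), beside 40.9%, 4.36% and 38.6% of all genes. With 1 mouse left out it was 0 to 0, beside up to 36.7%, 6.89% and 39.9% of all genes, each without KO PBS 136. No log2 fold change past the threshold turned its sign.

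Over all genes, counts were 6222 in WT skin (7 with the covariate, 2615 to 8565 with 1 mouse left out), 56 in KO skin (1212 in DESeq2, 176 without a filter, 34 with upper-quartile scaling, 0 in the 2-group fit, 1664 with the covariate, 4164 without both KO mice, 0 to 2632 with 1 left out), 12 for KO PBS against WT PBS (755 in DESeq2, 2 in the 2-group fit, 7648 without both, 6 to 6870), 17 for KO BLM against WT BLM (614, 6, 815 and 5 to 1292) and 0 for the difference of responses (3279 in DESeq2, 20 without a filter, 7218 without both, 0 to 7470). Of the 6 genes most like the stefin and calprotectin pattern, 3 to 5 remained with 1 mouse left out, and of the 6 most like Camp and Retnlg, 1 to 6. The causes of these changes were not tested. Camp, Ngp and Retnlg rest on few reads, and 3 mice a group limit all intervals.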

Other observations

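Markers of other cell types were present beside the set. In WT skin 19.8% of all genes tested rose and 14.1% fell, and the list counts below stand beside these shares. T cell genes rose in WT skin (10 of 12 tested, 0 down), and 0 of 12 were past the threshold in KO skin. All 12 had log2 fold changes above 0 in both genotypes, with medians of 1.42 in WT and 1.14 in KO skin. Their summed level was 42.6 to 49.2 CPM with PBS and 96.1 to 153 with bleomycin in WT mice, and 41.4 to 101 and 107 to 193 CPM in KO mice. Cd4, the co-receptor of helper T cells, went from 2.93 ± 0.283 to 21.6 ± 11.1 CPM in WT skin (edgeR quasi-likelihood test, adjusted p = 0.00561). Skeletal muscle genes rose in WT skin for 19 of 20, and 0 of 20 changed in KO skin. Of the 8 mast cell genes 3 rose and 1 fell, and of the 11 fibroblast genes 6 rose and 0 fell in WT skin, with 0 past the threshold in KO skin for either list. All 8 mast cell genes had log2 fold changes above 0 in KO skin (median 0.88), as had 6 of the 11 fibroblast genes (median 0.05). Erythrocyte genes, which would mark blood in the sample, fell for 2 of 6 in WT skin and changed for 0 of 6 in KO skin. Of the 15 epidermal keratinocyte genes 4 rose in WT skin, and 1, Flg, in KO skin (95.3 ± 31.6 to 962 ± 599 CPM, adjusted p = 0.0454). Growing-hair genes fell for 15 of 29 in WT skin and changed for 0 of 29 in KO skin. The part of these cell types in the levels of the stefin and calprotectin genes was not tested.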
